A study of Mus musculus with 2 samples.

Results

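The lysosome is described here through 37 genes for its hydrolases, their activators and its membrane proteins, in MC38 tumours with and without lowered Mbtps1. The genes were chosen by symbol from a fixed list, and all 37 were found among the 32285 features of the count matrices. By role they are 12 proteases with their protective and activating enzymes, 10 glycosidases, 2 sulfatases, 6 genes of lipid breakdown, 2 acid phosphatases, 4 membrane proteins and progranulin. MC38 is a mouse colon adenocarcinoma cell line that grows as a tumour in mice. The series holds 2 droplet libraries of dissociated MC38 tumours, 1 per group. The group labels read Mbtps1 WT, called control here, and Mbtps1 KD, called knockdown here, while the text on the series speaks of a knockout. Both groups share the MC38 line, and the sources used here do not give the way Mbtps1 was lowered, the host strain, sex or age, any treatment, or how many tumours went into a library.

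Lysosomal hydrolases are made at the endoplasmic reticulum, tagged with mannose 6-phosphate in the Golgi and carried by mannose 6-phosphate receptors to the lysosome, where they break down proteins, glycans, lipids and sulfated sugars. Site-1 protease, the product of Mbtps1, cuts membrane-bound transcription factors such as SREBP and ATF6, and also the precursor of the Gnptab product, the enzyme that starts the mannose 6-phosphate tag. Many lysosomal genes carry E-boxes near their start that TFEB and TFE3 bind, and macrophages are known for a large lysosomal compartment.

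Promoters of 34 of the 37 genes were found in the RefSeq promoter table for GRCm38.p6, which spans 250 bases before to 50 after each start. Asah1, Ctsb and Ctsh had no entry. The E-box CACGTG, which reads the same on both strands, lay in at least 1 promoter of 10 genes (29.4%), against 8.09% of the 27025 genes of the table. These were Arsa, Ctsa, Ctsd, Ctsl, Gaa, Gla, Glb1, Lamp1, Lgmn and Naglu. The longer TCACGTGA, which contains the E-box and is also the same on both strands, lay in 3 genes (8.82%), Ctsa, Ctsd and Gla, against 1.12% of all genes. Gla also holds 2 runs of TCACGTGA, and its tumour-like ratio, knockdown over control, was the lowest of the 37 at 0.631, but its promoter is not printed. The 5 promoters below are examples that hold several E-boxes (Ctsa, Ctsd and Lamp1) or none (Cd63 and Ctsz). Their tumour-like values, or for Ctsa the cluster ratios, are given below. They lie at chr2:164833523-164833822 on the plus strand for the second start of Ctsa, chr7:142387778-142388077 on the minus strand for Ctsd, chr8:13158911-13159210 on the plus strand for Lamp1, chr10:128909095-128909394 on the plus strand for Cd63 and chr2:174438990-174439289 on the minus strand for Ctsz. Each is printed 5′ to 3′ on the strand of its gene, and capitals mark CACGTG and TCACGTGA.
Ctsa: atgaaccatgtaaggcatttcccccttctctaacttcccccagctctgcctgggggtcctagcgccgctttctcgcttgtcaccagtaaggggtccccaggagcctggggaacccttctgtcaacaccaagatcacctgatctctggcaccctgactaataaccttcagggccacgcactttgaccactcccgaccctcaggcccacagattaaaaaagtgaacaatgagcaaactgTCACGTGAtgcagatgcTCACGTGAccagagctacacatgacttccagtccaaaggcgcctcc
Ctsd: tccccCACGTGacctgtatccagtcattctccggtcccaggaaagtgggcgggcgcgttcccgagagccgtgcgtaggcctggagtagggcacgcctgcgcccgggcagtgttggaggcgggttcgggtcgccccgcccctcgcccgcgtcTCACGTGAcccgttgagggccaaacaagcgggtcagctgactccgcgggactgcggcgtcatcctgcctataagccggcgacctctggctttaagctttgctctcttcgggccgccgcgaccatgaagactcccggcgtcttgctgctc
Lamp1: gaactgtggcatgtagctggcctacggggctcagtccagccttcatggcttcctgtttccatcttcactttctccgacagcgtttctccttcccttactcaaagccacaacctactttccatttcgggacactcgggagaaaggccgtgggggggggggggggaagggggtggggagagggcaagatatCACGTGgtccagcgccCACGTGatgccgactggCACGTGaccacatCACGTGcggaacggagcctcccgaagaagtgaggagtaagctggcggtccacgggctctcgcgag
Cd63: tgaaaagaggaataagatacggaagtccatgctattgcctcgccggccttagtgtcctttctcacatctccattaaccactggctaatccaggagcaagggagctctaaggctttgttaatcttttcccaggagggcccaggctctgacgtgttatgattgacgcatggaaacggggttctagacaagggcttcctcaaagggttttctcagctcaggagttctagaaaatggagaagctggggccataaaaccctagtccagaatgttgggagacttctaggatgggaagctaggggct
Ctsz: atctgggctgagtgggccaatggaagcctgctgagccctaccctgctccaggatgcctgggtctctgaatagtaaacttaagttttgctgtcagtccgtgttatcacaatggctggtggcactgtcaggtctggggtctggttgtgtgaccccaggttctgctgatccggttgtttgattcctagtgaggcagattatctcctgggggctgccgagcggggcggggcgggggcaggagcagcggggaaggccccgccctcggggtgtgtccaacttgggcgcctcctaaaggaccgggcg
A match is a run of letters in this window, not a shown binding site. In tumour-like cells the 10 genes with CACGTG had a median log2 ratio, knockdown over control, of -0.08, and the 24 without it -0.17. In macrophage/monocyte-like cells these medians were 0.04 and 0.10. For the longer TCACGTGA the tumour-like medians were -0.34 for the 3 genes with it and -0.12 for the 31 without, and the macrophage/monocyte-like ones -0.010 and 0.078. These are descriptions with no test, and the longer motif rests on 3 genes.

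After filtering, 10998 control and 15928 knockdown cells were kept, with medians of 8229.5 and 4886.5 UMIs, the tags that mark each captured RNA molecule. They held 81.2% and 75.5% of the UMIs of their library. Classes were rebuilt from clusters with fixed markers and are called "like" for that reason. The libraries shared 47 barcodes among kept cells. The 7 tumour-like clusters had 2.46 to 5.11 CPM (the UMIs of a class scaled to the same total) of Xist, the RNA of the inactive X chromosome, against 539 in fibroblast-like cells. UMIs count 3′ ends, so levels are per molecule and not per length. With 1 library per group no difference has a replicate check, cells of 1 library are not replicates, and the 95% intervals cover counting error only. In such pooled class sums, fewer cells with a gene and less RNA per cell cannot be told apart.

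Mbtps1 itself had 29.1 CPM in tumour-like cells of the control library and 12.4 in those of the knockdown, with a ratio of 0.427 (95% interval 0.399 to 0.457). In macrophage/monocyte-like cells it stood at 19.4 and 19.3 CPM. The targeted gene was thus lower in the library labelled as knockdown in tumour-like cells, and the labels do not name the cells in which it was lowered.

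Lysosomal RNA was most abundant in macrophage/monocyte-like cells, in both libraries. The 37 genes made up 2.16% of their UMIs in control and 2.16% in knockdown. Among the 9 classes with at least 50 cells in both libraries, the next shares were those of fibroblast-like cells, with 0.878% and 0.881%, neutrophil-like cells, with 0.838% and 0.682%, and dendritic-like cells, with 0.741% and 0.733%. Tumour-like cells followed with 0.544% and 0.469%, and T-like and NK-like cells held the least in control, 0.242% and 0.206%. Because the 37 genes were left out of the genes used for clustering, these levels did not define the classes.

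**Figure D1:**
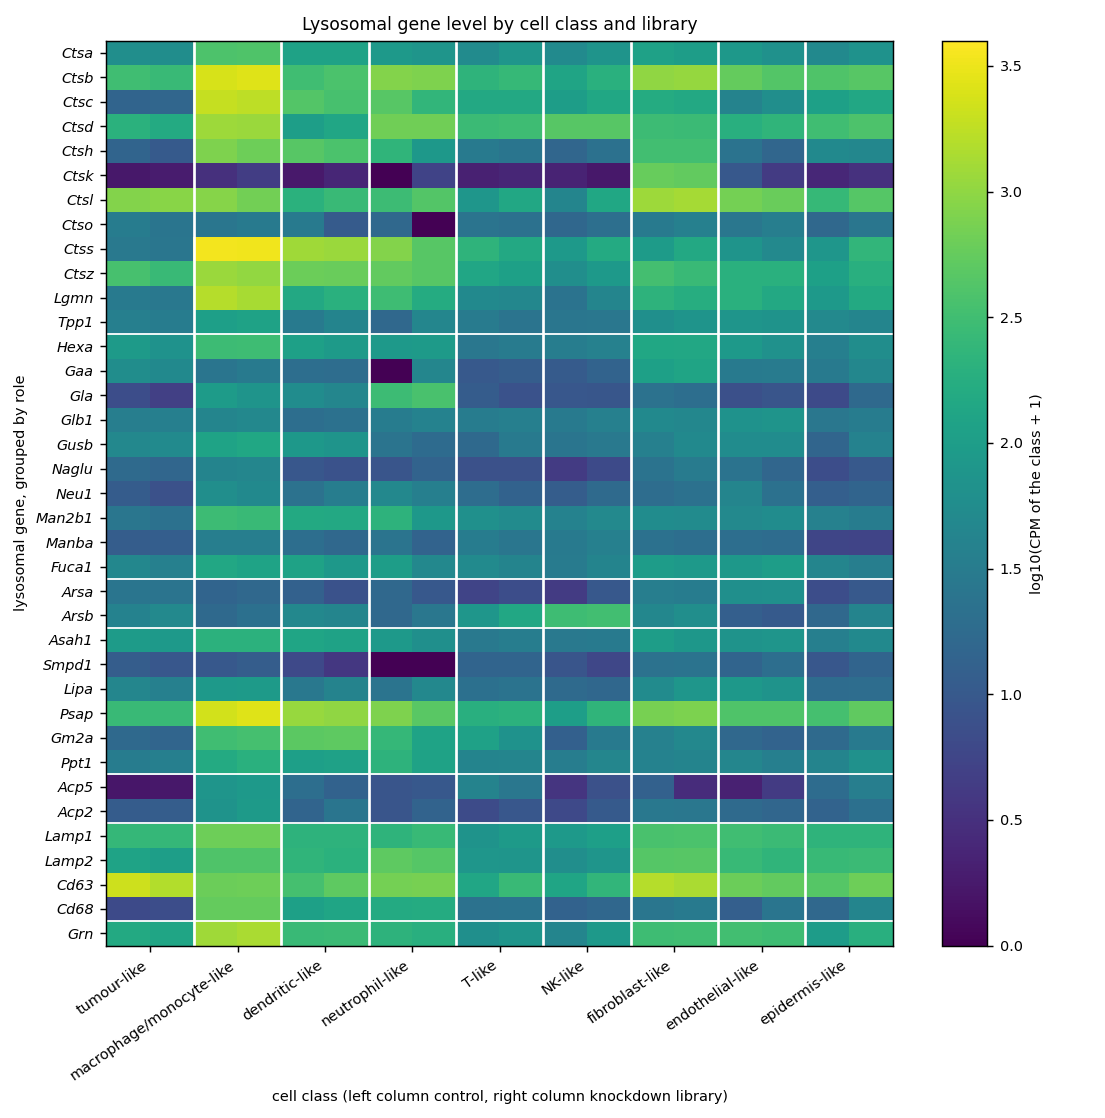
Level of each of the 37 genes, as log10(CPM + 1), in the 9 classes with at least 50 cells in both libraries; the left column of each class is control and the right is knockdown, and white lines part the roles. Macrophage/monocyte-like cells hold the highest level for 24 genes in each library, 23 of them the same. Ctsk stands out in fibroblast-like and Arsb in NK-like cells. Cd63 is highest in tumour-like cells (2099 and 1555 CPM), with fibroblast-like cells close behind (1603 and 1391).

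Macrophage/monocyte-like cells were above tumour-like cells for 31 genes in control and 32 in knockdown, with the interval of the ratio above 1. They were above by at least 2-fold for 28 and 29. The share of all genes above by these limits was not computed. The median ratio of the classes was 3.30 in control and 4.00 in knockdown. The widest gaps were those of Ctsc, the protease that activates granule serine proteases (141-fold in control, 124-fold in knockdown), Ctss, which trims the invariant chain of MHC class II (125-fold and 137-fold), Acp5, the tartrate-resistant acid phosphatase (112-fold and 123-fold), and Cd68, a macrophage lysosomal membrane glycoprotein (103-fold and 92.0-fold). These 4 genes stood at less than 2 times the level of free RNA in tumour-like cells, so their folds are set against a level that may not be that of tumour cells. Cd63, Arsa, Arsb and Gaa were among those going the other way in both libraries.

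Some members peaked outside the macrophages by a wide margin. Ctsk, the collagen-degrading cathepsin K, stood at 579.7 CPM in control and 536 in knockdown fibroblast-like cells, and at most at 8.90 in any other of the 9 classes. Pericyte-like cells, with under 50 cells per library, had 161 and 82.6 CPM of it. Arsb, which takes sulfate off dermatan and chondroitin sulfate, stood at 302 CPM (interval 275 to 330.4) in control and 318 (289 to 348) in knockdown NK-like cells, and T-like cells came next with 76.8 and 143. Gla, the alpha-galactosidase A that clears globotriaosylceramide, peaked in neutrophil-like cells at 297 CPM (210.1 to 407) and 368 (294 to 455), on 38 and 85 UMIs. Gm2a, the activator that presents GM2 ganglioside to hexosaminidase, peaked in dendritic-like cells at 499 and 509 CPM. Each of these peaks was seen in both libraries with intervals that overlapped. The class with the highest level was the same in both libraries for 33 of the 37 genes.

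In tumour-like cells the lysosomal genes took a smaller share of UMIs in the knockdown library. The 37 genes summed to 552903 of 101607120 UMIs (0.544%) in control and 461650 of 98495828 (0.469%) in knockdown, with a ratio of 0.861 (0.858 to 0.865). Their median log2 ratio was -0.14, against 0.08 over the 17292 genes with at least 20 UMIs. A gene was called where its ratio was at most 0.8, or at least the inverse of 0.8, with the interval off 1 and at least 50 UMIs over both libraries. By this rule 9 of the 37 genes (24.3%) were lower, against 9.61% of all genes, and 1 (2.70%) was higher, against 19% of all genes. Among genes with at least 500 UMIs the same 10 calls came from 35 members, against 9.6% lower and 12.9% higher of 11003 genes. Tumour-like cells of the knockdown library were also shallower, with a median of 14295 against 22243 UMIs, and depth is taken up with the clusters below.

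Cd63, a tetraspanin of late endosomes, lysosomes and exosomes, was the most abundant member in tumour-like cells. It stood at 2099 CPM (2089.7 to 2108) in control and 1555 (1547 to 1562) in knockdown, with a ratio of 0.741 (0.736 to 0.746). It made up 38.6% of the lysosomal UMIs in control and 33.2% in knockdown. Without Cd63 the summed share was 0.334% in control and 0.313% in knockdown, with a ratio of 0.937 (0.932 to 0.942), so Cd63 carried much of the summed difference. When each cell was thinned to 500 UMIs, a Cd63 UMI was found in 62.9% of control and 51.8% of knockdown tumour-like cells. Unthinned, it was in 99.0% and 98.2% of them. In T-like cells, where Cd63 stood near the level of free RNA, the thinned shares were 7.86% and 15.7%, at median depths of 2780.0 and 1916.5 UMIs.

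The other membrane proteins did not move as one. Lamp1, which with Lamp2 lines the lysosome, stood at 248 CPM in control and 247 in knockdown, with a ratio of 0.995 (0.978 to 1.01). Lamp2 stood at 120.04 and 102 CPM, a ratio of 0.852 (0.830 to 0.875), which is short of the call. Cd68 stood at 5.43 and 6.13 CPM, close to the level that free RNA alone would give. Cd63 was thus the 1 called membrane protein of the 4.

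Among the 12 proteases and their enzymes 4 were called lower and 0 higher in tumour-like cells. Ctsd, the main aspartic protease of the lysosome, stood at 198 CPM in control and 157 in knockdown (ratio 0.790). Ctsz, a carboxypeptidase, stood at 353 and 278 (ratio 0.787), and Ctso at 31.3 and 24.2 (ratio 0.771). Ctsh, an aminopeptidase, stood at 13.2 and 9.59 (ratio 0.725, 0.666 to 0.788), at 1.89 and 2.23 times the level that free RNA would give. Ctsl, a broad cysteine protease and the second most abundant member, lay on the other side of 1, at 866 and 913 CPM (ratio 1.05, 1.04 to 1.06). Ctsb, another broad cysteine protease, stood at 309 and 277 CPM (ratio 0.896, 0.881 to 0.910), and is not called. Ctsl and Ctsb therefore differed from 1 in opposite directions, each by less than the call asks.

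Glycosidases gave 4 further lower calls. Hexa, the alpha subunit of hexosaminidase, stood at 89.8 CPM in control and 68.0 in knockdown (ratio 0.757, 0.734 to 0.782). Gla stood at 6.01 and 3.80 (ratio 0.631, 0.554 to 0.719), and Neu1, the lysosomal sialidase, at 10.1 and 6.72 (ratio 0.666, 0.603 to 0.735). Fuca1, which removes fucose, stood at 45.9 and 35.7 (ratio 0.778). Gla and Neu1 had the lowest ratios of all 37 genes and are the 2 members called at a fold of 1.5. Of the rest, Gusb, the beta-glucuronidase, was the highest at 46.8 and 52.1 CPM (ratio 1.11, 1.07 to 1.16), and Glb1, Gaa, Naglu, Man2b1 and Manba lay between 0.860 and 1.04.

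Arsb was the 1 member called higher in tumour-like cells, at 38.9 CPM in control and 48.6 in knockdown, with a ratio of 1.2501 (1.20 to 1.30). Its ratio lies right at the limit of the call. Arsa, which desulfates sulfatide, stood at 23.8 and 23.2. None of the 6 lipid genes was called. Psap, the precursor of the saposins, stood at 276 and 274 CPM (ratio 0.995, 0.979 to 1.01), and Ppt1, which removes palmitate from proteins, at 31.1 and 35.2 (ratio 1.13, 1.08 to 1.19). Smpd1, Lipa, Gm2a and Asah1 had ratios of 0.819 to 0.912. Acp2 and Acp5 gave 1.04 and 1.06 with intervals that include 1. Grn, the progranulin that protects lysosomal function, stood at 151 and 129.5 CPM, a ratio of 0.856 (0.836 to 0.876).

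**Figure D2:**
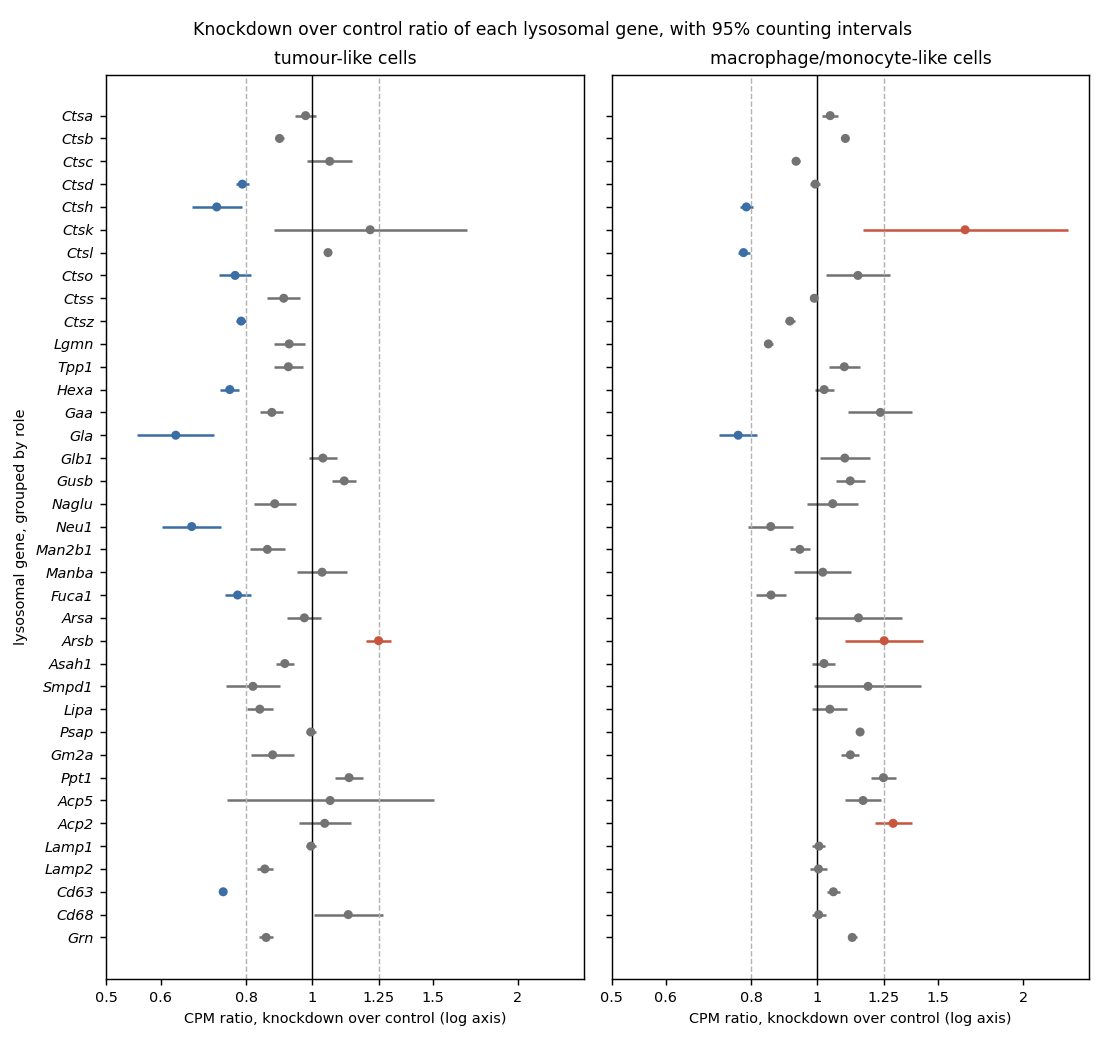
Ratio of class CPM, knockdown over control, on a log axis for each of the 37 genes in tumour-like (left) and macrophage/monocyte-like cells (right); points are ratios, lines are 95% counting intervals, dashed lines mark 0.8 and its inverse, and blue and red mark genes called lower and higher. Tumour-like cells have 9 blue points and 1 red, and macrophage/monocyte-like cells have 3 of each.

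Free RNA from lysed cells, estimated from markers of other classes, made up 2.62% of the tumour-like UMIs in control and 3.63% in knockdown. Of the 37 genes, 25 stood at 10 or more times the level that this RNA would give in both libraries. Ctsc, Ctsh, Ctss, Acp5 and Cd68 stood at less than 2 times that level in at least 1 library, so that their tumour-like values may not be those of tumour cells. Ctss, for example, stood at 27.2 CPM in control and 24.7 in knockdown, which is 1.13 and 1.05 times the level from free RNA. Of the genes called, Ctsh alone was in this group, and its ratio after subtraction was 0.857. In tumour-like cells the macrophage markers summed to 323 CPM in control and 289 in knockdown, with 10 of 14 lower. The 12 fibroblast markers summed to 774 and 466 CPM with 8 of 12 lower, and none of them was at 0. Their part in the lysosomal ratios was not tested.

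**Figure D3:**
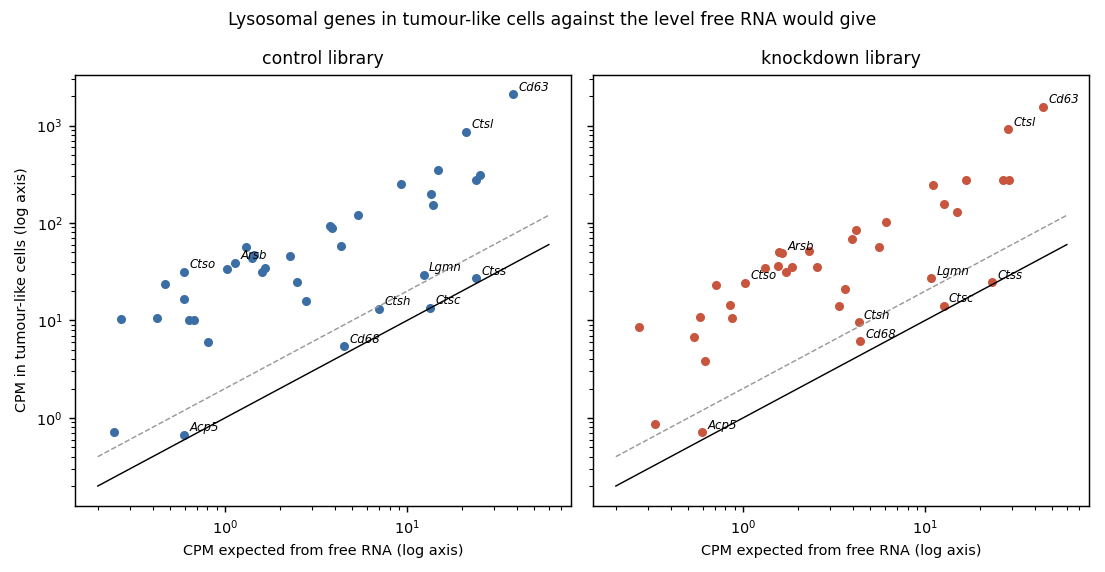
CPM of each of the 37 genes in tumour-like cells against the CPM that free RNA would give, on log axes, for control (left) and knockdown (right); the solid line is equality and the dashed line is 2 times. Ctsc, Ctss, Cd68 and Acp5 lie near the solid line in both libraries, and Cd63 lies 55.1 and 34.8 times above it.

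The 7 tumour-like clusters differed in lysosomal load. Clusters 8 and 14 carried the most lysosomal RNA, 0.734% and 0.616% of control UMIs, while the other 5 clusters carried 0.433% to 0.520%. Their leading genes include Ogn, Sdc2 and Matn2, which encode matrix and cell surface proteins, and in cluster 8 also H19. These 2 clusters held 1733 of 4235 control tumour-like cells (40.9%) and 766 of 6456 knockdown cells (11.9%). Within clusters the gap was narrower than in the class, since the summed share had ratios of 0.919 to 0.982 against 0.861. The median log2 ratio of the members lay between -0.04 and 0.06 in each cluster. With the clusters given the same weight in both libraries, the median was 0.03 and the ratio of the summed share 0.953. The median thus changed sign when the cluster weights were held the same at unmatched depth. The part of cluster makeup in the class ratios was not tested.

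**Figure D4:**
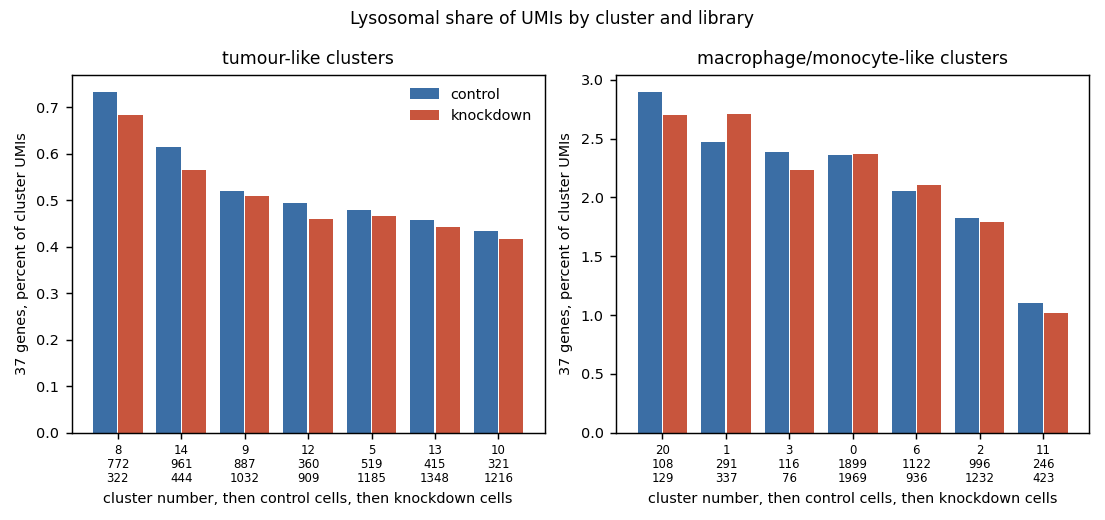
Share of UMIs held by the 37 genes in each tumour-like (left) and macrophage/monocyte-like cluster (right), control in blue and knockdown in red; below each cluster number stand its control and knockdown cells. The red bar is below the blue in all 7 tumour-like clusters, and clusters 8 and 14, with the tallest bars, have more control than knockdown cells.

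Depth moved the tumour-like values the other way. Among cells of 10000 to 20000 UMIs the ratio of the summed share was 0.742 and the median log2 ratio -0.35. With matched depth and the same cluster weights together, a setting added after the data were seen, they were 0.879 and -0.11. The ratio of the summed share was thus below 1 under each of these settings, while the median changed sign with the cluster weights alone. These shares include Cd63, whose ratio was 0.780 to 0.903 over the 7 tumour-like clusters. They were not computed without Cd63, so they do not show whether the other members were lower as a set. Clusters that 1 library fills can stand for that library and not for a state of the cells.

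Cd63 and Ctsz were lower in every tumour-like cluster. Cd63 ran from 1545 to 3060 CPM over the clusters in control and from 1376 to 2444 in knockdown, and its ratio was 0.780 to 0.903 with the interval below 1 in all 7. Ctsz had ratios of 0.813 to 0.866, again with the interval below 1 in all 7. These were the only 2 of 35 genes with at least 20 UMIs in every cluster for which that held. Ctsh, Hexa, Gla and Fuca1 had a ratio below 1 in all 7 clusters with intervals below 1 in 4 to 6 of them. Ctsh stood near the level of free RNA, and its class ratio was not past the fold of the call with that RNA subtracted. Neu1 was below 1 in 6 of 7.

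Most of the calls were lost once clusters had the same weight and depth was left unmatched. With matched depth as well, a setting added after the data were seen, 7 of the 10 stayed past the fold, and Arsb, Ctsd and Ctsz did not. At unmatched depth 2 of the 10 called members, Ctsh and Gla, stayed past the fold of the call, and Arsb, Cd63, Ctsd, Ctso, Ctsz, Fuca1, Hexa and Neu1 did not. The ratios of these were 1.23 for Arsb, 0.841 for Cd63, 0.912 for Ctso, 0.845 for Ctsz, 0.854 for Fuca1, 0.894 for Hexa and 0.816 for Neu1. Ctso was above 1 in 2 of 7 clusters. Ctsd turned to the other side of 1. It stood at 332 CPM in control and 369 in knockdown cells of cluster 8, a ratio of 1.11 (1.04 to 1.18), and at 181 and 154 in cluster 12, a ratio of 0.852. At equal cluster weights its ratio was 1.01, against 0.790 for the class. Lamp1 was above 1 in all 7 clusters, with ratios of 1.02 to 1.19, although its class ratio was 0.995. Arsb, Ppt1 and Ctsa were also above 1 in all 7, with ratios of 1.05 to 1.57, 1.15 to 1.4025 and 1.05 to 1.19. For 14 of the 35 genes the class ratio was below that of every cluster. The share of all genes for which this held was not computed.

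**Figure D5:**
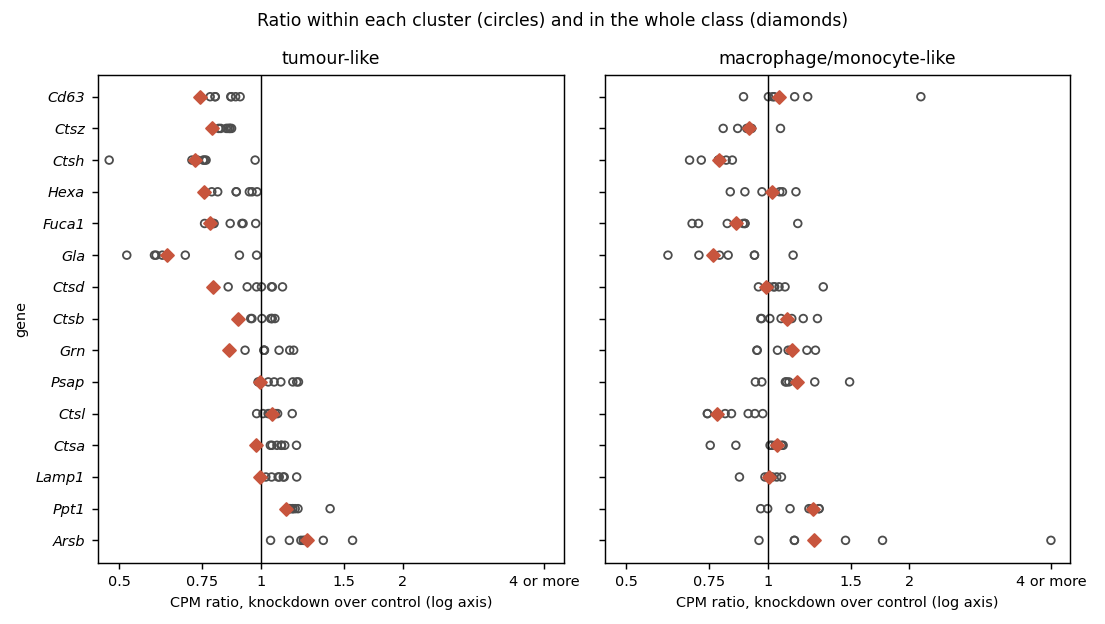
Ratio of CPM, knockdown over control, on a log axis for 15 genes in each cluster with at least 20 UMIs (circles) and in the whole class (red diamonds), in tumour-like (left) and macrophage/monocyte-like cells (right); a circle at the right edge stands for 4 or more. Cd63, Ctsz, Ctsh, Hexa, Fuca1 and Gla lie left of 1 in every tumour-like cluster, and several red diamonds lie left of all their circles.

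In macrophage/monocyte-like cells the summed lysosomal share differed between the libraries by less than counting error, while single members differed in both directions. The 37 genes made up 672081 of 31088871 UMIs in control and 458697 of 21190799 in knockdown, with a ratio of 1.0013 (0.9975 to 1.0051). Their median log2 ratio was 0.06, as was that of the 14301 genes with at least 20 UMIs. Called higher were 3 members (8.11%), against 12.2% of all genes, and called lower were 3, against 3.77%. Among genes with at least 500 UMIs, 2 of 36 members were higher, against 7.03% of all such genes, and 3 lower, against 2.9%. Median depth was 6072 UMIs in control and 3712 in knockdown cells. The ratio of the summed share was 1.06 in cells of matched depth, 1.04 with free RNA subtracted and 0.958 with each cell at equal weight, so that its side of 1 depended on the setting. Free RNA was 7.26% of UMIs in control and 11.3% in knockdown, and none of the 37 genes was under 2 times its level.

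The most abundant members stayed within the limits of the call. Ctss stood at 3409 CPM (3388 to 3429) in control and 3374 (3349 to 3399) in knockdown, with a ratio of 0.990 (0.980 to 0.999). Ctsb stood at 2429 and 2669.7 (ratio 1.10, 1.09 to 1.11), and Psap at 2267 and 2619 (ratio 1.155, 1.14 to 1.17). Ctsc stood at 1890.4 and 1759.7 (ratio 0.931, 0.919 to 0.943), and Grn at 1226 and 1378 (ratio 1.12, 1.11 to 1.14). Together Ctss, Ctsb, Psap, Ctsc and the fifth member, Lgmn in control and Grn in knockdown, held 53.6% and 54.5% of the lysosomal UMIs.

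Lower in the knockdown library were Ctsh, Ctsl and Gla. Ctsh stood at 804 CPM (794 to 814) in control and 633 (622 to 644) in knockdown, with a ratio of 0.787 (0.771 to 0.804). Ctsl stood at 880.1 (869.7 to 891) and 686 (675 to 698), a ratio of 0.780 (0.764 to 0.796), and Gla at 93.1 and 71.3, a ratio of 0.766 (0.719 to 0.815). Ctsh had its interval below 1 in all 7 clusters, with ratios of 0.682 to 0.841. Lgmn, the asparaginyl endopeptidase that activates cathepsins, did so as well, with class levels of 1600.2 and 1357 CPM and a ratio of 0.848 (0.836 to 0.860), short of the call. Ctsl was below 1 in all 7 clusters and had its interval below 1 in 4. It was highest in cluster 1, led by Mmp12, Pf4, Arg1 and Spp1, at 2524 CPM in control and 1879 in knockdown. Fuca1 stood at 142 and 122 CPM (ratio 0.856, 0.815 to 0.898), which is not called, and was below 1 in 6 of 7 clusters.

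Higher in the knockdown library were Acp2, Arsb and Ctsk. Acp2, an acid phosphatase of the lysosome, stood at 69.1 and 89.1 CPM (ratio 1.29, 1.21 to 1.37). Arsb stood at 16.3 and 20.4 (ratio 1.2525, 1.10 to 1.43), and Ctsk at 2.12 and 3.49 (ratio 1.64, 1.16 to 2.33) on 66 and 74 UMIs. Ctsk had at least 20 UMIs in 4 of 7 clusters, with ratios of 0.760 to 3.96 and the interval above 1 in 1 of them. It was highest in cluster 1, at 6.53 and 25.9 CPM. Ppt1 reached 156 and 194 CPM, a ratio of 1.2495 (1.20 to 1.30) just short of the call, and Gaa, the acid alpha-glucosidase, 24.0 and 29.6 (ratio 1.24, 1.11 to 1.38). None of the 32 genes with at least 20 UMIs in every cluster was above 1 in all 7. Psap ranged from 0.941 in cluster 11 to 1.49 in cluster 1, where it stood at 2844 and 4245 CPM.

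The macrophage/monocyte-like clusters differed in lysosomal load more than the libraries did. Cluster 11, led by Chil3, Plac8 and Ace, genes known from monocytes, held 1.10% of UMIs in control and 1.02% in knockdown. Cluster 20, led by Retnla, Cd209f and Fcna, held 2.90% and 2.70%. The ratio between libraries within a cluster was 0.929 to 1.10. Ctsd spanned the clusters from 180.2 CPM in cluster 11 to 2144 in cluster 1 in control, and from 236 to 2266 in knockdown.

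In the smaller classes the ratios rest on few UMIs and on more free RNA. In dendritic-like cells 3 of the 27 members with at least 50 UMIs were called higher, against 7.12% of all genes, and 1 lower, against 7.57%. Cd63 stood at 340.2 CPM in control and 507 in knockdown (ratio 1.49, 1.30 to 1.72) and Fuca1 at 116 and 83.2 (ratio 0.716, 0.521 to 0.972). Lipa, the acid lipase that frees cholesterol, stood at 26.6 and 39.5 and Gla at 55.4 and 43.7, both with intervals that include 1. Free RNA was 7.09% and 19.4% of dendritic-like UMIs.

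In T-like cells 6 of 32 such members were called higher, against 8.59% of all genes, and 3 lower, against 6.92%. Cd63 stood at 133 CPM in control and 278 in knockdown (ratio 2.09, 1.81 to 2.42), and Ctsl at 77.3 and 145 (ratio 1.87, 1.55 to 2.28). Both stood below 2 times the level that free RNA would give. Arsb, at 76.8 and 143 CPM (ratio 1.86, 1.54 to 2.27), stood 17.8 and 22.1 times above it. Gm2a was lower, at 115 and 68.4 CPM (ratio 0.597, 0.493 to 0.723), as was Acp5, at 39.5 and 25.9 (ratio 0.655, 0.474 to 0.908). Of the T-like members called, Arsb was thus the one farthest above free RNA. With free RNA subtracted, 4 of the 6 called higher stayed past the fold of the call. The class pools cluster 15, whose leading genes include Ifng and Cd8a, with 364 control and 1337 knockdown cells, and cluster 22, whose leading genes include Ctla4 and Foxp3, with 145 and 227. The part of this makeup in the T-like ratios was not tested.

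In NK-like cells 11 of the 26 members with at least 50 UMIs were called higher, against 11.1% of all genes, and 0 lower, against 6%. Ctsl stood at 43.2 CPM in control and 137 in knockdown (ratio 3.18, 2.39 to 4.26), and Gm2a at 11.8 and 28.8 (ratio 2.45, 1.38 to 4.52). Ctsd stood at 462 and 462 and Tpp1, the tripeptidyl peptidase, at 24.9 and 25.4. Free RNA was 4.38% of NK-like UMIs in control and 13.6% in knockdown, and 7 of the 11 genes stood at less than 2 times its level. With free RNA subtracted, 10 of the 11 stayed above 1 and 8 stayed past the fold of the call. The summed level of the 14 macrophage markers was 1064 and 1584 CPM, with 13 higher. Its part in the NK-like ratios was not tested.

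In epidermis-like cells 7 of the 21 members with at least 50 UMIs were called higher, against 9.3% of all genes. All 7 stood at less than 2 times the free RNA level in at least 1 library, with free RNA at 9.66% and 32.8% of UMIs. With that RNA subtracted, 4 of the 7 stayed past the fold of the call. In neutrophil-like cells 6 of 16 such members were called lower, against 15.9% of all genes, and 1 higher, against 13.7%, on 69 and 200 cells, with all 14 macrophage markers lower too, at a sum of 7757 and 3138 CPM. Fibroblast-like cells had 2 of 35 members higher, Ctss and Lipa, against 6.29% of all genes, and 0 lower, against 8.71%. Ctss stood there at 1.20 and 1.396 times the level of free RNA, and 1 cell held 43.7% of its control UMIs. Endothelial-like cells had 2 of 24 lower, Ctsb and Neu1, against 7.61%, and 0 higher, against 9.45%.

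Genes that tag, carry or acidify the lysosomal cargo were set beside the 37. Of 12 genes of mannose 6-phosphate tagging or of other transport to the lysosome, 0 were called in tumour-like or macrophage/monocyte-like cells. Their median log2 ratios were 0.07 and 0.11. Of all genes, 9.61% were called lower and 19% higher in tumour-like cells. In macrophage/monocyte-like cells these shares were 3.77% and 12.2%. In tumour-like cells Gnptab had 36.1 CPM in control and 42.4 in knockdown (ratio 1.17, 1.12 to 1.23). M6pr, a mannose 6-phosphate receptor, stood at 51.7 and 55.4, Scarb2, the carrier of glucocerebrosidase, at 68.0 and 68.9, Gnptg, a further subunit of the phosphotransferase, at 7.82 and 6.54, and Sort1 at 0.344 and 0.447 on 35 and 44 UMIs. In macrophage/monocyte-like cells M6pr stood at 197 and 231 CPM (ratio 1.18, 1.13 to 1.22), Scarb2 at 111 and 119.8, Gga2 at 13.2 and 15.5, Gga3 at 15.3 and 13.0, and Gnptab at 69.6 and 64.5.

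Of 16 genes of the proton pump, the V-ATPase, 1 was called lower in tumour-like cells, against 9.61% of all genes. The median log2 ratio of the 16 was -0.10 in tumour-like and 0.02 in macrophage/monocyte-like cells. The called gene was Atp6v0d1, at 42.5 and 30.6 CPM (ratio 0.720, 0.687 to 0.754). The abundant Atp6v1g1 stood at 365 and 322 and Atp6v0b at 246 and 231. Atp6v0d2 had 6 and 18 UMIs there. In macrophage/monocyte-like cells Atp6v0c stood at 1069 and 1095 CPM, Atp6v0e at 331 and 337, Atp6v0a1 at 52.5 and 48.7, and Atp6v1e1 at 149 and 178 (ratio 1.19, 1.14 to 1.24). Among the 4 TFE factors Tfeb stood at 29.6 CPM in control and 22.4 in knockdown macrophage/monocyte-like cells (ratio 0.756, 0.675 to 0.845). Tfeb was the 1 call of that list, and 3.77% of all genes were called lower in that class. In tumour-like cells Tfeb stood at 3.16 and 2.61 and Tfe3 at 11.9 and 11.9, and in macrophage/monocyte-like cells Mitf stood at 162 and 142 and Tfe3 at 39.4 and 41.8.

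Among 15 other lysosomal genes, 2 of those reported here were called higher in tumour-like cells, against 19% of all genes. Mcoln1, a calcium channel of the lysosome, stood at 6.56 and 8.498 (ratio 1.29, 1.17 to 1.44) and Idua at 4.58 and 5.92 (ratio 1.29). The abundant Laptm4a stood at 352 and 357 and Npc2, a cholesterol carrier, at 279.8 and 226 (ratio 0.809, 0.795 to 0.823). In macrophage/monocyte-like cells Ids alone was called, at 25.7 and 32.2 CPM, while Npc2 stood at 1667 and 1648, Laptm5 at 883 and 909 and Hgsnat at 46.0 and 43.6. Of the 3 cathepsin inhibitors Cst7 was called higher in macrophage/monocyte-like cells, at 4.73 and 7.79 CPM (ratio 1.65, 1.31 to 2.07), while Cst3 and Cstb were not called in either class. Cstb stood at 562 and 538 CPM in tumour-like and 654 and 783 in macrophage/monocyte-like cells, and Cst3 at 358 and 318 and at 2237 and 2116.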

How the data were processed

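The data are 2 single-cell libraries of MC38 tumours, 1 control and 1 knockdown, prepared with 10x chemistry that reads 3′ ends. The labels' protocols give 6000 cells as put on each channel and 3000 as the aim. Counts are whole UMIs per gene and barcode, deposited by the authors without a cell filter and written by Cell Ranger 4, per the file headers. No source used here names the genome build. Barcodes were kept with at least 500 UMIs, 250 genes, no more than 20% of UMIs from mitochondrial genes, and RNA unlike that of empty droplets (1000 draws, false discovery rate 0.01, those of 3000 UMIs or more taken as cells). Scrublet in scanpy 1.11.5 removed 470 and 850 doublets. The kept cells exceed the number loaded.

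Clustering used 2000 variable genes without the 37 members and 50 pathway genes, 30 components, 15 neighbours and Leiden resolution 1, and gave 27 clusters. A cluster was named for the class of which it held most markers (3 or more), where a held marker reached 20 CPM and 25% of its top cluster, and one with Xist under 20 CPM could be only tumour-like or unnamed. These limits were set after the data were seen. Unnamed clusters held 2.45% of control and 8.75% of knockdown cells, most of them in a shallow cluster with low Xist. Cluster 21, led by Trdc and holding 6 T markers, was also unnamed, with 20 control and 111 knockdown cells left out of the T-like class.

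Class sums of UMIs in each library were scaled to CPM. Ratios carry exact conditional 95% intervals. These were run on simulated counts with counting error only, which is what the intervals assume. That run had no spread between cells or libraries, so it cannot show how the intervals fare with such spread. No test across samples was possible with 1 library per group. In tumour-like and macrophage/monocyte-like cells values are given for the 6 most abundant members and the 5 with the highest and lowest ratios by the interval end nearest 1, and for called genes. In other classes of at least 200 cells they are given for 2 each way, and in each pathway list for the 2 most abundant, the highest and the lowest, with called genes added. Free RNA was estimated per class from markers of other classes and the profile of barcodes with at most 100 UMIs. The members and lists were chosen with earlier results of these data known. Alternatives changed the cell filters, doublets, clustering, depth, cluster weights, free RNA, scaling and the fold. A result of the list of other lysosomal genes is not reported here.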

Additional observations from a re-analysis of the deposited data

Results flagged for a closer look

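The ratio between libraries pointed opposite ways in tumour-like and macrophage/monocyte-like cells for 8 of the 37 genes, with both intervals off 1. The share of all genes that did so was not computed, so the count is not shown to be particular to the 37. Among all genes with at least 50 UMIs, intervals off 1 were common. In tumour-like cells 3768 of 15270 lay below 1 and 6007 above, and in macrophage/monocyte-like cells 1751 of 12524 and 3280. For each of the 8 genes the difference was not tested, since each group holds 1 library. The pairs below give the knockdown over control ratio in tumour-like and then in macrophage/monocyte-like cells. Cd63 stood at 0.741 and 1.06, Ctso at 0.771 and 1.15, Gaa at 0.873 and 1.24, and Grn at 0.856 and 1.12. Gm2a stood at 0.875 and 1.12, Ctsb at 0.896 and 1.10, and Tpp1 at 0.922 and 1.10. Ctsl alone was above 1 in tumour-like cells, at 1.05, and below in macrophage/monocyte-like cells, at 0.780. Of these, Cd63 and Ctso were called in tumour-like cells and Ctsl in macrophage/monocyte-like cells. Within clusters Cd63 was below 1 in all 7 tumour-like clusters and above 1 in 6 of 7 macrophage/monocyte-like clusters, and Ctsl was above 1 in 6 of 7 and below 1 in all 7. Ctso was below 1 in 5 of 7 tumour-like clusters. For the others the tumour-like direction mostly did not hold within clusters. Grn was above 1 in 6 of 7 tumour-like clusters, Ctsb and Gaa in 5, Gm2a in 4 and Tpp1 in 3, and the class ratio of each of these 5 genes lay below that of every cluster.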

How the results depend on the processing

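No paired analysis was possible because each group holds 1 library. All values in this section are log2 ratios, knockdown over control, unless said otherwise. The tumour-like median of the 37 genes, -0.14, turned to 0.031 with clusters at the same weight. It was -0.35 in cells of matched depth (10000 to 20000 UMIs) and -0.22 when centred on the median of all genes. The tumour-like summed share, -0.22, was -0.23 with doublets kept, -0.24 with the members kept in the clustering genes, -0.21 at resolution 0.6, -0.43 in cells of matched depth, -0.24 with each cell at equal weight, -0.069 with clusters at the same weight, -0.22 with free RNA subtracted, -0.23 without mitochondrial, ribosomal and haemoglobin UMIs and -0.30 when centred. Chosen after seeing the data, it was -0.21 with the shallow low-Xist cluster counted as tumour, -0.23 without clusters that lack an own marker among 10 leading genes and -0.19 with same weights and matched depth together. The macrophage/monocyte-like median, 0.06, was 0.16 in cells of matched depth (5000 to 10000 UMIs) and, added later, 0.16 with same weights too. Its summed share, 0.0019, was 0.089 and 0.087 in these settings, 0.012 without clusters lacking an own marker (added later), -0.061 with each cell at equal weight, 0.054 with free RNA subtracted and -0.057 when centred. At a fold of 1.5 the called members went from 10 to 2 in tumour-like and from 6 to 1 in macrophage/monocyte-like cells. With clusters at the same weight 8 of the 10 members called in tumour-like cells were no longer past the fold, and Ctsd turned to 0.020. In the other alternatives 0 to 3 were lost, Arsb most often, and Ctsh with free RNA subtracted. Of the 6 members called in macrophage/monocyte-like cells, 0 to 2 were lost and 0 turned. Libraries could not be left out, so the spread between tumours is unknown, and members under 50 UMIs in small classes could not be called.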
